A study of Mus musculus with 4 samples.

Results

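The fibrillar collagen genes examined here are Col1a1, Col1a2, Col3a1, Col5a1, Col5a2, Col5a3 and Col11a1, out of 22913 genes in each file. These 7 were listed by name and chosen with earlier results of these data known. RNA sequencing measured them in dermal white adipose tissue (dWAT), the fat layer of the skin around the lower ends of hair follicles, microdissected from C57BL/6 mice. The old mice were 18 months and the young mice 2 months of age, and each age was taken in telogen, the resting phase of the hair cycle, and in anagen, the growth phase, which was induced by depilation. This gave old telogen dWAT (OTD), young telogen dWAT (YTD), old anagen dWAT (OAD) and young anagen dWAT (YAD), with tissue of 20 mice per group and 1 library per group. No group was replicated, so no difference carries an error between animals and no test could be made. The age field of the labels disagrees with the titles and protocol for YTD (18 months) and OAD (2 months), and the ages of the titles and protocol were used. Depilation goes with anagen in both ages, so hair cycle phase and depilation cannot be told apart.

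Fibrillar collagens are the rope-like proteins that give skin and fat their tensile strength. Each molecule is a triple helix of 3 chains, made as a procollagen whose end pieces are cut off before it packs into fibrils. Col1a1 and Col1a2 encode the chains of type I collagen, the bulk of dermal fibrils, and Col3a1 encodes the chain of type III, which joins type I in the same fibrils. Type V (Col5a1, Col5a2, Col5a3) and type XI (Col11a1) are minor fibril components that help to start fibrils and limit their diameter, and type XI is best known from cartilage. In skin and fat, fibroblasts are the main makers of types I and III.

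The repeating unit that makes a chain a collagen is visible in the coding sequence. Glycine, encoded by GGN, opens each triplet of residues in the helix. The longest unbroken run of such triplets was 337 to 344 long in all 7 genes, against coding lengths of 4119 bases (Col1a2) to 5517 bases (Col5a1). One exon of 54 bases is shown for the 3 chains with the highest levels and for Col5a3, whose levels behaved differently, read from the GRCm38 transcripts. The exons are coding exon 8 of Col1a1 (chr11:94939904-94939957, plus strand), coding exon 8 of Col1a2 (chr6:4515481-4515534, plus strand), coding exon 6 of Col3a1 (chr1:45325360-45325413, plus strand) and coding exon 15 of Col5a3 (chr9:20801068-20801121, minus strand). Capitals mark the 6 GGN codons that open the triplets of each exon.
Col1a1: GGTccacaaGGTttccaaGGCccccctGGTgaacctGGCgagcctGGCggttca
Col1a2: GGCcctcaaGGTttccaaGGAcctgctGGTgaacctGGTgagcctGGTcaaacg
Col3a1: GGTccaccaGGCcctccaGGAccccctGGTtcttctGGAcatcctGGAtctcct
Col5a3: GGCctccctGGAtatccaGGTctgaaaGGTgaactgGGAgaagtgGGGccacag

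The exon pattern was shared beyond these examples. Of 408 coding exons in the 7 genes, 184 were 54 bases long and 332 were a multiple of 9 bases, the length of 1 triplet. All 310 exons that lie wholly within the run were a multiple of 9 bases, so each such exon holds whole triplets. Despite this repeat, no stretch of 50 bases was shared between coding sequences of the 7 genes, which bears on whether reads could be assigned to the wrong member. Stretches of 50 bases were shared with other genes at the same locus only for Col3a1 (0.391% of its stretches, with Gm47302) and Col5a1 (2.19%, with 2810430I11Rik and Gm13372). Whether the counting used strand is not given in the sources used here, so reads of these overlapping genes and of Col3a1 and Col5a1 may not have been separated.

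**Figure D1:**
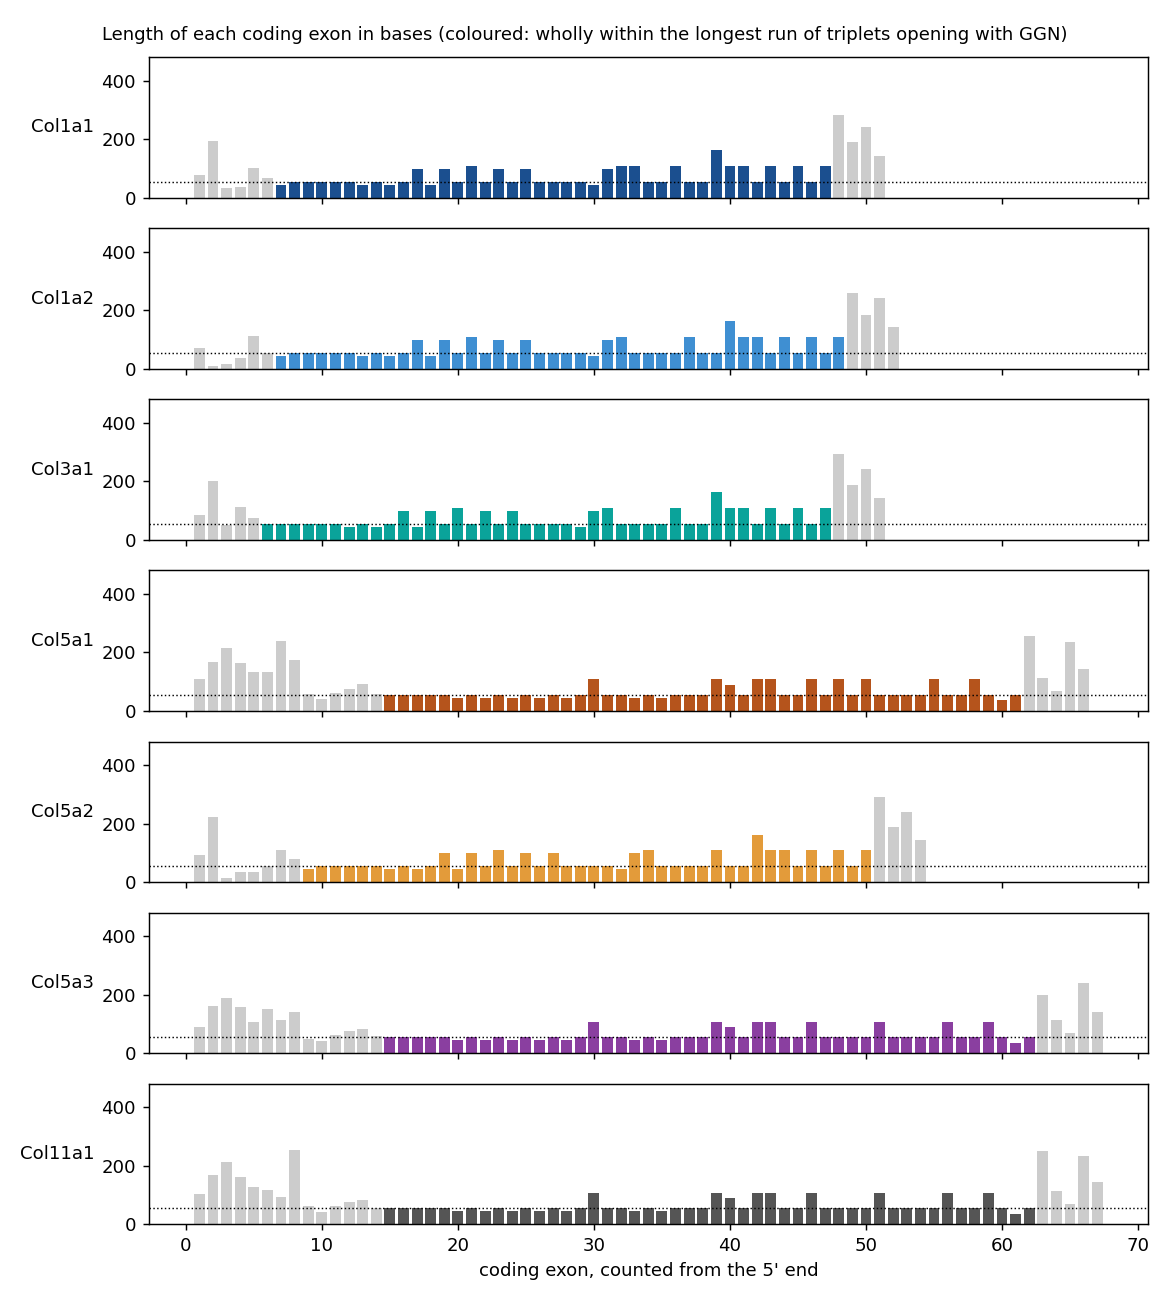
Length in bases of each coding exon, in order from the 5' end, for the 7 genes, with exons wholly within the longest run of triplets opening with GGN in colour, the others in grey and a dotted line at 54 bases. Col1a1, Col1a2, Col3a1 and Col5a2 have 51 to 54 coding exons and Col5a1, Col5a3 and Col11a1 have 66 or 67, and exons of 54 bases recur through the run in all 7.

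Levels are given in FPKM, fragments scaled to the length of a gene and to the mapped fragments of the library, as deposited. Depth was estimated from the steps in the lowest values as roughly 18800000 to 24300000 fragments per library. Intervals given with levels and ratios are 95% intervals from the estimated fragments, and cover counting error only. The libraries differed in more than the groups: genes of the mitochondrial genome held 52.7% (OTD) and 44.7% (YTD) of the summed FPKM in telogen and 18.3% (OAD) and 14.4% (YAD) in anagen, skeletal muscle markers held 1.95% to 9.74%, and keratins with keratin-associated proteins held 0.0635% to 0.113% in telogen and 13.9% to 15.1% in anagen. All 15 adipocyte markers were above 0 in each library, with a summed 8696 (OTD), 7326 (YTD), 3021 (OAD) and 2162 FPKM (YAD). The part of these shifts in the values below was not tested.

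The 3 main chains stood far above the others in level. Col3a1 (ENSMUSG00000026043, chr1:45311538-45349706, plus strand, GRCm38) had the highest level of the 7 in each library, with 226 FPKM in OTD, 227 in YTD, 95.6 in YAD and 33.5 in OAD. Col1a2 (ENSMUSG00000029661, chr6:4504814-4541543, plus strand) came next, with 177 FPKM in OTD, 175 in YTD, 78.3 in YAD and 21.7 in OAD. Col1a1 (ENSMUSG00000001506, chr11:94936224-94953042, plus strand) followed, with 94.5 FPKM in OTD, 133 in YTD, 64.4 in YAD and 16.5 in OAD. For all 3 chains, OAD was the lowest library and YAD the next lowest. Among all 22913 genes, Col3a1 ranked 365th in OTD, 424th in YTD, 766th in YAD and 2371st in OAD from the highest level.

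The chains of type V lay below the main chains in each library. Col5a1 (ENSMUSG00000026837, chr2:27886425-28039514, plus strand), the chain found in most type V molecules, was at 8.47 FPKM in OTD, 9.82 in YTD, 6.79 in YAD and 2.99 in OAD. Col5a2 (ENSMUSG00000026042, chr1:45374321-45503282, minus strand), its usual partner, was at 13.8 FPKM in OTD, 11.4 in YTD, 8.84 in YAD and 4.82 in OAD. Col5a2 lies 24614 bases from Col3a1 on the opposite strand. OAD was again the lowest library for both chains. Col5a3 (ENSMUSG00000004098, chr9:20770050-20815067, minus strand), a further chain of more limited distribution, had a different order: 4.96 FPKM in OTD, 6.24 in YTD, 7.55 in YAD and 5.49 in OAD. The counting intervals of Col5a3 in OTD (4.56 to 5.39 FPKM) and OAD (5.09 to 5.92 FPKM) overlapped. Both young libraries lay above both old ones in value, although the interval in YTD (5.75 to 6.75 FPKM) also reached that in OAD.

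Col11a1 (ENSMUSG00000027966, chr3:114030540-114220718, plus strand) had the lowest level of the members in each library, at 0.419 FPKM in OTD, 0.405 in YTD, 1.16 in YAD and 0.343 in OAD. These levels rest on an estimated 48 fragments in OTD, 41 in YTD, 141 in YAD and 45 in OAD, and 3 fragments would give 0.0228 to 0.0295 FPKM. The interval in YAD (0.978 to 1.37 FPKM) lay above those of the other 3 libraries (together 0.250 to 0.552 FPKM), which overlapped each other.

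**Figure D2:**
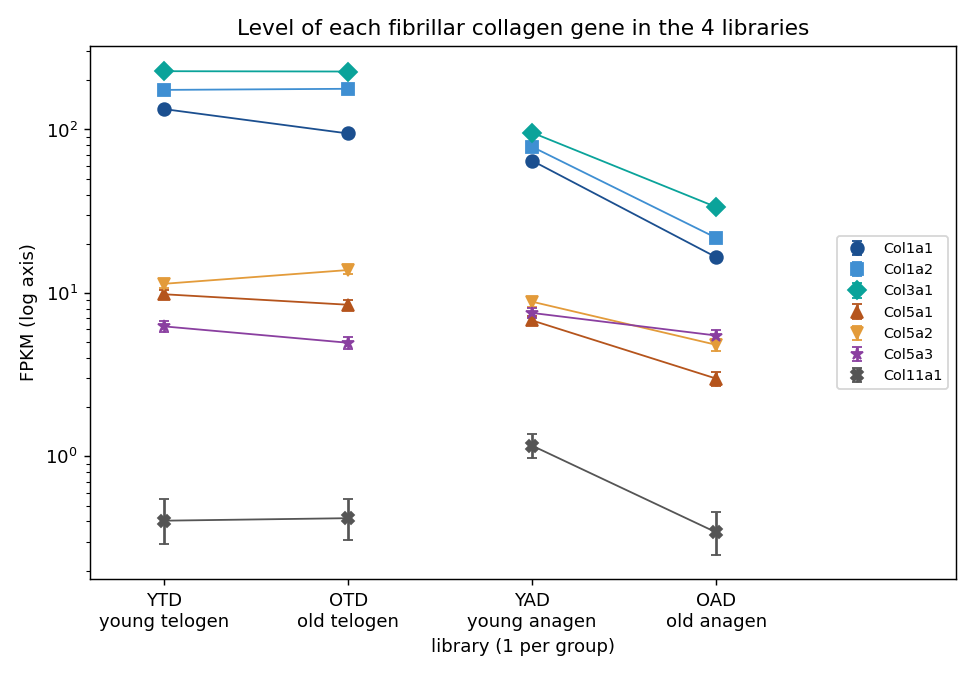
FPKM on a log axis of the 7 genes in the 4 libraries, with 95% counting intervals from the estimated fragments and lines joining the young and old library of the same phase. The lines are nearly level in telogen for Col1a2 and Col3a1, and in anagen all 7 run down from YAD to OAD.

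In anagen, the comparison of old with young dWAT sets the ages side by side while hair grows. The paper reports that old mice took longer than young mice to enter anagen after depilation. OAD and YAD may therefore also differ in time since depilation, which cannot be told apart from age here. The 3 main chains fell in old anagen dWAT past the threshold used, a difference of at least 1 in log2(FPKM + 1), and no chain rose. The difference was -1.90 for Col1a1, -1.80 for Col1a2 and -1.48 for Col3a1, which are FPKM ratios of 3.89, 3.60 and 2.85 of young to old. Thus 3 of 7 members were called lower, where 0.454% of the 17613 genes compared were called lower, and none was called higher, where 0.727% were. Counted from the most negative, Col1a1 was 15th, Col1a2 17th and Col3a1 29th of these genes. All 3 were called lower in each of 10 settings of scaling, filter and pseudocount, with differences of -2.14 to -1.14. These 10 include the main setting, and the filter, at least 1 FPKM in a library, cannot change the value of a member. At a threshold of 1.5 Col3a1 was no longer called. Col1a1, Col3a1 and Col5a1 are named in the paper among genes that differed in these libraries, so their direction here is not independent evidence. For Col1a1, as a gene lower in OAD than in YAD, the paper also reports quantitative PCR on other mice, which was not examined here.

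The minor chains had the same sign without reaching the threshold. Col5a1 differed by -0.96, Col5a2 by -0.76, Col11a1 by -0.69 and Col5a3 by -0.40. The FPKM ratio of young to old was 2.27 for Col5a1, 1.83 for Col5a2 and 1.37 for Col5a3. For Col11a1 the ratio was 3.39, and the added 1 compresses the difference of a gene at this level. In TPM (-1.21) and in the 3 scalings without mitochondrial genes (-1.10 to -1.08), Col5a1 was also called. With a pseudocount of 0.1 or 0.01, Col5a1 and Col11a1 were also called, which made 5 of 7, where 3.02% and 6.81% of all genes were called lower. The median over the 7 was -0.96, beside 0 over all genes compared.

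In telogen, the same comparison of ages gave no call. No member of 7 was called lower, where 1.93% of the 17230 genes compared were, and none was called higher, where 1.67% were. Col1a1 differed by -0.49, Col5a3 by -0.28 and Col5a1 by -0.19. Col5a2 differed by 0.26, and Col1a2 (0.02), Col3a1 (-0.01) and Col11a1 (0.01) were near 0. Scaled to fibroblast markers, Col1a1 was called lower (-1.05), where 9.58% of all genes were and the median of the genes with at least 1 FPKM in each library was -0.53. The median over the members was -0.01 against -0.03 over all genes compared. The age difference in anagen minus that in telogen was -1.83 for Col1a2, -1.48 for Col3a1, -1.41 for Col1a1 and -1.02 for Col5a2, and -0.11 for Col5a3. This contrast was not tested, because each of its 4 values is a single library.

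**Figure D3:**
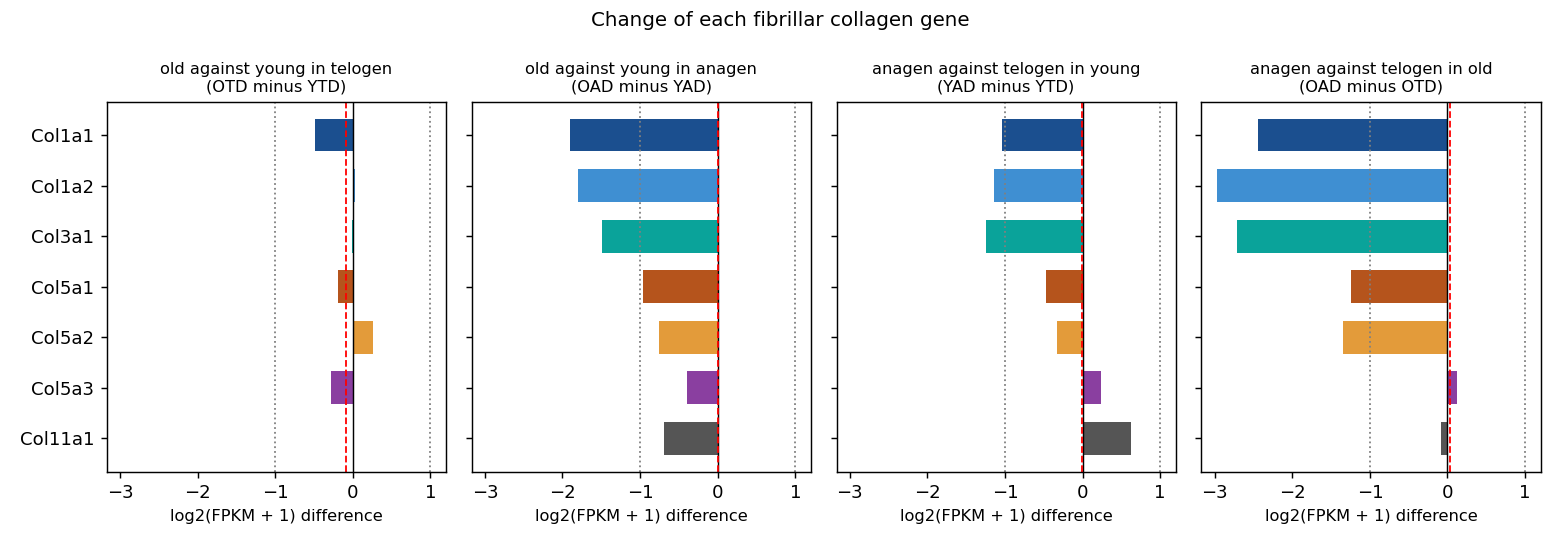
Difference in log2(FPKM + 1) of the 7 genes in the 4 comparisons, with dotted lines at the threshold of 1 in size and a red dashed line at the median of the 11181 genes with at least 1 FPKM in each library. In anagen the bars for Col1a1, Col1a2 and Col3a1 pass -1 between ages, and between ages in telogen no bar does.

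The second axis of the study is the hair cycle. In young mice, Col3a1 (-1.24), Col1a2 (-1.15) and Col1a1 (-1.04) fell from telogen to anagen, which was 3 of 7 members called lower where 16.7% of the 17622 genes compared were. None was called higher, where 16.1% of genes were. Col5a1 differed by -0.47, Col5a2 by -0.33, Col5a3 by 0.24 and Col11a1 by 0.62. The FPKM of Col11a1 was 2.88-fold higher in YAD than in YTD. These calls depended on scaling. In TPM, which brings each library to the same sum, none was called lower and Col11a1 was called higher, where 7.23% of all genes were called lower and 33.4% higher. Scaled to the fibroblast markers none was called lower and both Col5a3 and Col11a1 were called higher, where 5.58% of all genes were called lower and 38.4% higher.

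In old mice, Col1a2 (-2.97), Col3a1 (-2.72), Col1a1 (-2.44), Col5a2 (-1.35) and Col5a1 (-1.25) fell from telogen to anagen. Thus 5 of 7 members were called lower, where 15.6% of the 17712 genes compared were, and none was called higher, where 16.1% were. The level of Col1a2 was 8.16-fold, that of Col3a1 6.75-fold and that of Col1a1 5.71-fold lower in OAD than in OTD. Col5a3 (0.12) and Col11a1 (-0.08) did not reach the threshold. In TPM 3 members were called lower, where 8.48% of all genes were called lower and 27.8% higher. Scaled to the fibroblast markers 1 was called lower (Col1a2) and 1 higher (Col5a3), where 0.92% of all genes were called lower and 57.7% higher. The age and phase comparisons share libraries, so they are not separate evidence of a low OAD.

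Summed over the 7 genes, the FPKM was 525.6 in OTD, 562.9 in YTD, 262.6 in YAD and 85.4 in OAD. As a share of the summed FPKM without the mitochondrial genes, this was 0.0890% in OTD, 0.0818% in YTD, 0.0442% in YAD and 0.0128% in OAD. The makeup of that sum differed between libraries: types I and III held 94.7% of it in OTD, 95.1% in YTD, 90.7% in YAD and 84.0% in OAD.

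Ratios between chains within a library are independent of how that library was scaled. Col1a2 stood to Col1a1 as 1.31 in YTD (1.28 to 1.34), 1.22 in YAD (1.18 to 1.26), 1.31 in OAD (1.23 to 1.40) and 1.88 in OTD (1.83 to 1.93). The ratio in OTD lay apart from the other 3, with Col1a1 lower there than in YTD and Col1a2 level. The type I protein contains more chains from Col1a1 than from Col1a2, and the FPKM ratio was above 1 in favour of Col1a2 in all 4 libraries. Listed lengths cover the coding part only, and GC content was 62.9% for Col1a1 and 59.5% for Col1a2. The FPKM ratio may therefore differ from the ratio of transcripts, which was not tested, and no protein was measured here. Col3a1 to Col1a1 was 1.71 in YTD, 1.48 in YAD, 2.03 in OAD and 2.39 in OTD, higher in both old libraries than in both young ones.

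Within the minor chains, Col5a2 to Col5a1 was also higher in the old libraries, at 1.63 in OTD and 1.61 in OAD (1.41 to 1.84) against 1.16 in YTD (1.06 to 1.27) and 1.30 in YAD (1.18 to 1.43). Col5a1 to Col1a1 was 0.0737 in YTD, 0.0896 in OTD, 0.105 in YAD and 0.181 in OAD. Col5a3 to Col5a1 was 0.585 in OTD (0.526 to 0.650) and 0.636 in YTD (0.574 to 0.704) in telogen, and 1.11 in YAD (1.01 to 1.22) and 1.83 in OAD (1.62 to 2.08) in anagen. Col11a1 to Col5a1 was 0.0412 in YTD and 0.0495 in OTD, against 0.171 in YAD and 0.115 in OAD. Both ratios were higher in the anagen libraries than in the telogen ones, beyond the counting intervals.

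**Figure D4:**
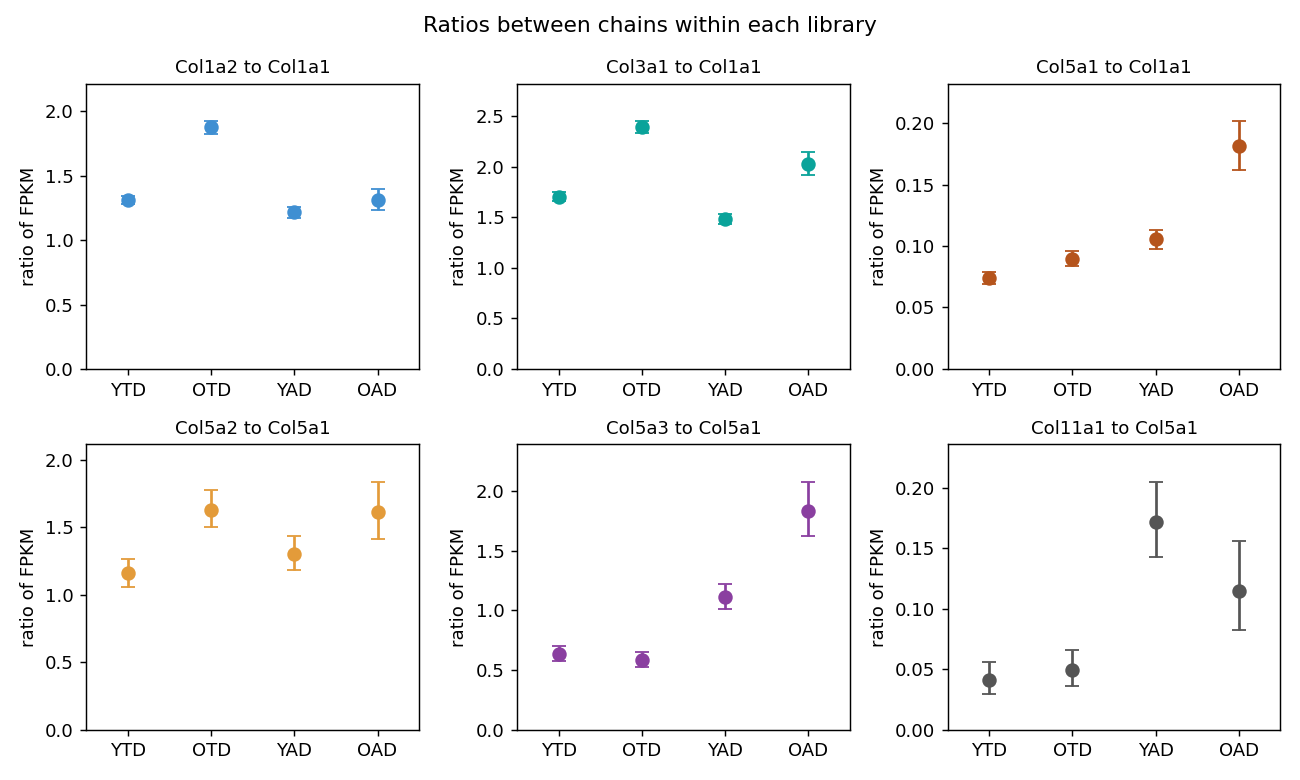
Ratio of FPKM between pairs of chains in the 4 libraries, with 95% counting intervals and axes starting at 0. Col1a2 to Col1a1 is highest in OTD at 1.88, Col3a1 to Col1a1 is higher in both old libraries, and Col5a3 to Col5a1 is highest in OAD at 1.83.

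None of the 4 other fibrillar collagens measured was called in any of the 4 comparisons, where 0.454% to 16.7% of all genes were called in a direction. The added 1 compresses differences at these low levels, so the lack of calls does not show that these genes were unchanged. Col11a2, the second chain of type XI, was at 0.416 FPKM in OTD, 0.380 in YTD, 1.55 in YAD and 1.35 in OAD. Its FPKM was 4.09-fold higher in anagen than in telogen in young mice and 3.25-fold higher in old mice. Col27a1 was at 1.06 FPKM in OTD, 0.978 in YTD, 0.802 in YAD and 0.546 in OAD. Col24a1 was at 0.326 FPKM in OTD, 0.384 in YTD, 0.209 in YAD and 0.141 in OAD. Col2a1, the main collagen of cartilage, was at 0.0916 FPKM in YTD, 0.159 in YAD and 0.145 in OAD, and under the level of 3 fragments in OTD.

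All 22 genes listed for the folding and modification of collagen chains in the endoplasmic reticulum were measured, and not all of them encode enzymes or chaperones. Over all genes, 0.454% were called lower and 0.727% higher between ages in anagen, and 1.93% and 1.67% in telogen. Lower in sign between ages were 49.9% of all genes compared in anagen and 54.1% in telogen. These shares also apply to the lists below. In old against young anagen dWAT none was called in either direction, and the median was -0.08, with 17 of 22 lower in sign. The differences largest in size were those of Creb3l1 (0.63), P3h2 (0.55) and Plod2 (0.46), all with higher values in OAD. Serpinh1, the collagen-specific chaperone, was at 75.5 FPKM in OTD, 84.2 in YTD, 65.8 in YAD and 56.3 in OAD, against a span of 16.5 to 133 FPKM for Col1a1. In telogen Mia3, which helps to export procollagen, was the only one of the 22 called, at -1.39. Calls for this list and those below use the FPKM as deposited. Other scalings, on which the phase calls of the members depended, were not run for the lists. From telogen to anagen 4 of 22 were called lower in young mice, where 16.7% of all genes were. These were Tmem38b (-2.51), Fkbp7 (-1.66), P4ha1 (-1.21) and Plod1 (-1.17). In old mice 5 were called lower, where 15.6% of all genes were, with Fkbp7 at -2.40 and Tmem38b at -1.96. There 2 were called higher, Plod2 (1.16) and Creb3l1 (1.05), where 16.1% of all genes were.

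The procollagen processing and crosslinking list held 13 genes. None was called between ages in anagen, where at most 0.727% of all genes were called in either direction. There Loxl2 (-0.93), Pcolce (-0.80) and Adamts2 (-0.68) had the largest differences and the median was -0.27. Loxl2 is a crosslinking oxidase, Pcolce enhances removal of the C-terminal end piece and Adamts2 removes the N-terminal one. None of 13 was called between ages in telogen either, where the median was 0.02. From telogen to anagen, where 16.7% of all genes were called lower in young and 15.6% in old mice, 5 of 13 fell in young mice, namely Pcolce2 (-2.31), the crosslinking oxidase Lox, Pcolce (-1.28), Loxl1 (-1.17) and Adamts2 (-1.03). In old mice 8 of 13 fell, with Pcolce2 (-3.29), Pcolce (-2.10) and Adamts2 (-1.98) largest.

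Products of the fibril surface genes coat fibrils or link them to the matrix. In telogen 4 of 18 were called higher in old mice, where 1.67% of all genes were. These were Comp (1.49), Dcn (1.38), Ogn (1.11) and Lum (1.03). None was called lower, and the median was 0.36. Dcn encodes decorin, a small proteoglycan that binds fibrils, and was at 599 FPKM in OTD, 230 in YTD, 107 in YAD and 85.8 in OAD. In anagen only Col14a1 was called between ages, at -1.33, and the median of the 17 genes above 0 was -0.48, with 15 lower in sign. Col14a1 encodes a collagen that sits on the fibril surface and was at 2.25 FPKM in OAD and 7.14 in YAD. From telogen to anagen 15 of 17 were called lower in old mice, where 15.6% of all genes were, with Lum at -3.94. In young mice 5 of 18 were called lower, where 16.7% of all genes were. These were Dpt (-2.46), Ogn (-2.31), Lum (-2.08), Sparc (-1.74) and Dcn (-1.10). Col12a1 rose in both (1.06 in young, 1.13 in old).

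Genes for collagen breakdown and sensing gave 1 call between ages. All 8 collagen-degrading proteases above 0 had higher values in old telogen dWAT, with a median of 0.50, but only Ctsk, a lysosomal protease, passed the threshold (1.39). In anagen none of 8 was called between ages, with a median of -0.10. None of the 9 collagen receptors above 0 was called between ages in either phase. Between phases, anagen against telogen, Itgb1, the beta chain of collagen-binding integrins, fell (-1.73 in young, -1.68 in old), while Ddr1, a collagen-binding kinase of epithelia, rose (1.18 and 1.75).

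The TGF beta axis, the best known inducer of collagen transcription, was measured for 18 genes. In telogen 2 of 18 were called higher in old mice, where 1.67% of all genes were, among them Ccn2 (1.39), known as a TGF beta target. None was called lower, where 1.93% of all genes were, and Smad3 had the most negative difference (-0.97). The median was 0.20. In anagen none of 18 was called between ages, the median was 0.13 and 12 were higher in sign. From telogen to anagen 6 of 18 were called lower in young mice, where 16.7% of all genes were, with Tgfb3 (-2.01) and Tgfbr2 (-1.58) largest. In old mice 5 were called lower, where 15.6% of all genes were, Tgfbr2 (-2.21) and Tgfbr3 (-2.03) among them. Smad7, an inhibitor of the pathway, rose in both (1.89 in young, 1.76 in old). Tgfb1 itself was at 14.8 FPKM in OTD, 13.1 in YTD, 12.6 in YAD and 13.2 in OAD.

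**Figure D5:**
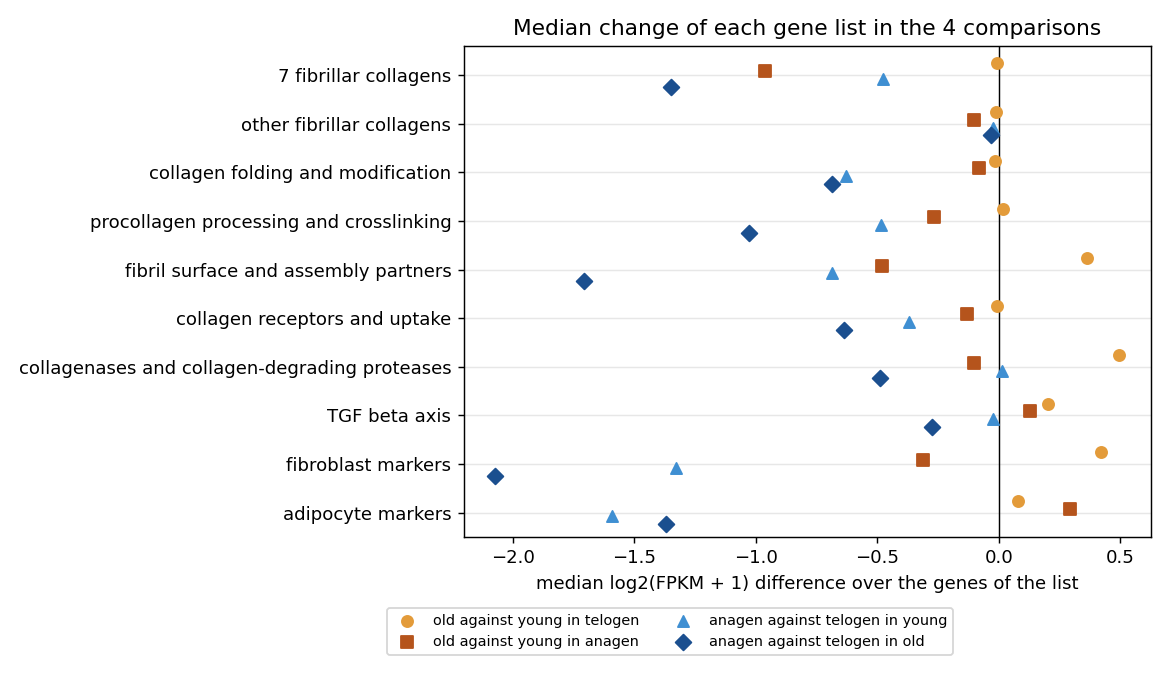
Median difference in log2(FPKM + 1) over the genes of each list in the 4 comparisons. Between ages in anagen (squares) the median of the 7 fibrillar collagens is -0.96 and that of the folding genes -0.08, and in the old anagen to telogen comparison (diamonds) the median of the fibroblast markers is -2.07 and that of the 7 fibrillar collagens -1.35.

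Markers of fibroblasts moved with several of these results, and their part in the results was not tested. In bulk tissue, fewer fibroblasts and less collagen RNA per fibroblast cannot be told apart. None of the 15 fibroblast markers was at 0 in any library, and their summed level was 2111 FPKM in OTD, 1380 in YTD, 509 in YAD and 410 in OAD. In anagen 13 of 15 were lower in sign in old mice, with a median of -0.31 and none called. In telogen all 15 were higher in sign in old mice, with a median of 0.42. There Dcn and Lum were called higher, where 1.67% of all genes were. From telogen to anagen 10 of 15 fell and 2 rose in young mice, where 16.7% of all genes were called lower and 16.1% higher. In old mice 12 fell and 2 rose, where 15.6% of all genes were called lower and 16.1% higher. Those that rose were Crabp1 (3.46 in young, 3.08 in old) and Dpp4 (1.51 and 1.18). Lum, Dcn and Dpt stand in both this list and that of the fibril surface.

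Levels were set against the geometric mean of the 14 fibroblast markers with at least 1 FPKM in each library. This ratio was computed after the values were seen. By it, the main chains and Col5a1 were lower in both old libraries than in both young ones. The mean was 50.08 FPKM in OTD and 33.75 in YTD, so a gene with equal FPKM in both has a lower ratio in OTD. Col1a2 and Col3a1 were near level in telogen, so their lower ratio in OTD reflects the higher mean there. The share of all genes with this order was not computed, for the mean or for single markers. Col1a1 was 3.95 times that mean in YTD and 4.02 times in YAD, against 1.89 in OTD and 1.33 in OAD. Col1a2 was 5.17 times in YTD and 4.89 in YAD, against 3.54 in OTD and 1.74 in OAD. Col3a1 was 6.73 times in YTD and 5.97 in YAD, against 4.52 in OTD and 2.69 in OAD. Taken against the 14 markers one at a time, both old libraries lay below both young ones for 11 markers with Col1a1, 9 with Col1a2 and 8 with Col3a1, and for 5 with Col5a1, 2 with Col5a2 and Col11a1, and 1 with Col5a3. Against the mean, Col5a1 had the same order, at 0.291 times in YTD and 0.424 in YAD against 0.169 in OTD and 0.240 in OAD. With the libraries scaled to that mean, the difference between ages in anagen was -1.57 for Col1a1, -1.47 for Col1a2 and -1.14 for Col3a1. In telogen it was -1.05 for Col1a1, -0.54 for Col1a2 and -0.57 for Col3a1. Under the same scaling, the median of the genes with at least 1 FPKM in each library was 0.34 in anagen and -0.53 in telogen.

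Other cell types of the skin moved mostly with the phase. Between telogen and anagen libraries, epidermis and hair shaft markers went from a summed 245 FPKM (OTD) and 422 (YTD) to 15417 (OAD) and 12567 (YAD), and dermal papilla and sheath markers from 21.6 (OTD) and 17.0 (YTD) to 124 (OAD) and 148 (YAD). Endothelial markers went the other way, from 521 (OTD) and 333 (YTD) to 130 (OAD) and 100 (YAD). Between ages in anagen, 0.454% of all genes were called lower and 0.727% higher. There Sostdc1 was the 1 of 12 dermal papilla and sheath markers called (-1.36) and none of 10 endothelial markers was called. All 9 melanocyte markers were lower in sign in old anagen dWAT, with a median of -0.81, and Pmel was called (-1.03). Of the epidermis and hair shaft markers Krt14 (1.02) and Lor (-1.02) were called. The summed level of macrophage markers was 832 FPKM in OTD, 513 in YTD, 199 in YAD and 168 in OAD. That of Schwann cell markers was 771 (OTD), 583 (YTD), 143 (YAD) and 118 (OAD), and that of smooth muscle and pericyte markers 1684 (OTD), 2028 (YTD), 375 (YAD) and 446 (OAD). Melanocyte markers summed to 16.3 (OTD), 19.2 (YTD), 766 (YAD) and 468 (OAD). Skeletal muscle markers summed to 77047 (OTD), 121366 (YTD), 13516 (YAD) and 17664 (OAD). The part of these cell types in the chain levels was not tested.

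The genes whose pattern over the 4 libraries lay nearest to that of Col1a1 included the other main chains. Likeness was measured as the Euclidean distance of centred log2(FPKM + 1), over 4 libraries and 14202 genes with at least 1 FPKM in a library. Col1a2 was the nearest at 0.49 and Col3a1 followed at 0.51, while Col5a1 ranked 57th and Col5a2 294th. Col5a3 (6666th) and Col11a1 (6770th) lay far down the order. The 5 nearest genes that are not fibrillar collagens were Mt3 (0.53), Ece1 (0.57), Gm10479 (0.59), Mrpl48 (0.63) and Tnmd (0.75). Mt3, a metallothionein, was at 15.9 FPKM in OTD, 19.5 in YTD, 5.99 in YAD and 1.48 in OAD. The likeness rests on 4 points, and nothing about shared control follows from it.

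Promoter sequences are shown for 3 chains that differ in their values, namely Col3a1, which was called lower between ages in anagen, Col5a1, which was just short of the threshold between ages in anagen, and Col5a3, which was not called in any comparison of the FPKM as deposited. RefSeq (GRCm38.p6) gave a sequence for 5 of the 7 genes. Col1a1 and Col5a2 were not among them, and the window of Col1a2 (chr6:4505368-4505617) lies inside the span the files give for that gene and is not shown. Each sequence is the 250 bases before the RefSeq start, at chr1:45311288-45311537 (Col3a1, plus strand), chr2:27886175-27886424 (Col5a1, plus strand) and chr9:20815068-20815317 (Col5a3, minus strand). Capitals mark matches on either strand to 4 motifs, which are the CCAAT box, the TATA box written as TATAAA, the GC box written as GGGCGG and, as a sequence that Smad proteins are known to bind, CAGACA.
Col3a1: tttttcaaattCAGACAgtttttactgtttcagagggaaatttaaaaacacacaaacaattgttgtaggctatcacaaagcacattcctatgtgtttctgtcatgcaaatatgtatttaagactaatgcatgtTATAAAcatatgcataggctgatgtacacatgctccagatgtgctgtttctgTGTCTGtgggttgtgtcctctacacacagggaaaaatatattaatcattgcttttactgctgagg
Col5a1: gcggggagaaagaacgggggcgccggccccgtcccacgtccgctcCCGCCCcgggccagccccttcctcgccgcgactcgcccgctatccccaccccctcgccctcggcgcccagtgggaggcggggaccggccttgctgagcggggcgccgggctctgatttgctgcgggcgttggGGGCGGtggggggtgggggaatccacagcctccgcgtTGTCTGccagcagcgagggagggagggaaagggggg
Col5a3: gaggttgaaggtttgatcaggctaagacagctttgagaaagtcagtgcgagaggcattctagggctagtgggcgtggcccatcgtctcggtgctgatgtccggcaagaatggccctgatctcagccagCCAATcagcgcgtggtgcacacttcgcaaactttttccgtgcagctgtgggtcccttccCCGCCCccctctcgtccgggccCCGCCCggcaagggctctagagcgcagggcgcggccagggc

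Col3a1 held 1 TATAAA, beginning at -117, and 2 CAGACA matches at -239 and -65, counted from the start, the latter on the opposite strand. Col5a1 held 2 GGGCGG and 1 CAGACA, and Col5a3 held 1 CCAAT and 2 GGGCGG. Of all 32851 promoters of this length, 33.8% held CCAAT, 12.4% TATAAA, 32.7% GGGCGG and 17.1% CAGACA, so each motif is common. The GC content was 35.2% for Col3a1, 76.4% for Col5a1 and 62.8% for Col5a3, beside a median of 52.4% over all promoters. The matches describe these letters and no binding was measured.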

How the data were processed

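RNA of dWAT with an integrity number above 7.5 was sequenced in 4 libraries, 1 per group, grouped by the titles of the samples. The authors deposited FPKM for 22913 genes with the position and length of each. The submitters' processing notes name bcl2fastq, TopHat2 and GRCm38. The tool that gave the FPKM, the annotation and the use of strand are not given in the sources used here. Listed lengths equal the coding length in all 7 members.

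The FPKM were used as deposited. A gene was called when log2(FPKM + 1) differed by at least 1 between libraries. Fragments were estimated from the lowest values of genes of 2000 to 4000 bases, with exact 95% Poisson intervals for levels and exact binomial intervals for ratios. A level of 3 fragments was taken as the floor. Read counts were not used here, so no alternative on counts was run. Genes above 0 in either library entered a comparison.

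The members and lists were chosen with earlier results of these data known. Named genes are the members, the other fibrillar collagens, at most 3 genes per list and comparison with the largest differences, and the 5 nearest to Col1a1. Serpinh1, Tgfb1 and further genes of a list with 5 or fewer calls were chosen after their values were seen, as was the ratio to fibroblast markers. Of the list genes 1 was not analysed here, and 1 is not reported here. Steps were tested on simulated data. Python 3.11.15, numpy 2.4.6, pandas 2.3.3, scipy 1.17.1 and matplotlib 3.10.9 were used.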

Additional observations from a re-analysis of the deposited data

Results flagged for a closer look

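Age differences of opposite sign in the 2 phases, or phase differences of opposite sign in the 2 ages, were found for 3 of the 7 genes. The share of all genes with such opposite signs was not computed, so this count cannot be set against a background. None of these contrasts was tested because each value rests on single libraries. Between old and young dWAT, Col1a2 differed by 0.02 in telogen and -1.80 in anagen. Col5a2 differed by 0.26 in telogen and -0.76 in anagen. Col11a1 differed by 0.01 in telogen and -0.69 in anagen. Between anagen and telogen, Col11a1 differed by 0.62 in young and -0.08 in old mice. The telogen values of Col1a2 and Col11a1 are close to 0, so their opposite sign rests on small values.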

How the results depend on the processing

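The number of members called between ages in anagen was 3, but 5 with a pseudocount of 0.1 or 0.01, and 4 in TPM and in the 3 scalings without mitochondrial genes. Between ages in telogen it was 0, and 1 scaled to fibroblast markers. From telogen to anagen in young mice it was 3, but 1 in TPM (called higher), 1 without mitochondrial genes, 0 without mitochondrial, keratin and keratin-associated genes and 0 at a threshold of 1.5. In old mice it was 5, but 3 in TPM, 2 scaled to fibroblast markers and 3 at a threshold of 1.5. Scaled to fibroblast markers, Col1a1 reversed to 0.03 from telogen to anagen in young mice, and in old mice Col5a1 reversed to 0.42, Col5a2 to 0.43 and the median of the members to 0.42. That scaling moved the median of the 11181 genes with at least 1 FPKM in each library by 1.75 in old and 0.94 in young mice from telogen to anagen, and relative to the median so reached the members' median was -1.37 and -0.45. TPM moved it by 0.54 and 0.74, with relative medians of -1.38 and -0.45. Of the other member counts under alternatives, 30 were within 1.5 times the value reported, and of the remaining values 196 moved by less than their 95% counting error, 136 by more and 4 reversed. The filter of at least 1 FPKM in a library cannot change the value of a member, so all its entries are among the 30 and the 196. The counts ignore direction: in young mice 3 called lower became 2 called higher when scaled to fibroblast markers. Only values of at least 1 in size were counted as reversed, so smaller sign changes are left out. In TPM, from telogen to anagen in young mice, Col5a1 went from -0.47 to 0.28 and Col5a2 from -0.33 to 0.44. With 1 library per group no replicate could be left out. No paired analysis was possible because each group has 1 library. Among the members, depth limits Col11a1 most.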
